A study of Mus musculus with 18 samples.

Results

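The 10 genes Hspa5, Hsp90b1, Xbp1, Dnajb9, Sdf2l1, Pdia4, Pdia6, Calr, Creld2 and Manf encode chaperones, folding enzymes and a transcription factor of the endoplasmic reticulum (ER), and were picked by name. All 10 were among the 54532 genes in each table, and all 10 passed the filter on low values in both. Liver RNA came from male wild-type C57BL/6J mice that entered the diets at 4 wk of age and were fasted overnight, with 1 library per mouse. Mice without fenofibrate ate a control diet (Ctrl, n = 5) or a diet deprived of 99% of its riboflavin, vitamin B2 (B2D, n = 5), for 4 wk. In a separate experiment, mice ate the same diets for 9 wk and received fenofibrate (FF), a PPARα agonist, from week 7 to week 9 at 300 mg/kg, the last dose 2 hr before harvest (Ctrl+FF and B2D+FF, n = 4 each). Since both FF groups received the drug and were older, FF, time on diet and table cannot be told apart, and levels were tested only within a table. Mice are numbered here within each group.

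The ER folds secreted and membrane proteins, a heavy load in hepatocytes, which secrete most plasma proteins. When unfolded proteins build up, HSPA5 (BiP) leaves the sensors IRE1 (Ern1), PERK (Eif2ak3) and ATF6, and the unfolded protein response begins. IRE1 splices Xbp1 mRNA into the message for an active transcription factor, and cleaved ATF6 and XBP1 drive chaperone genes such as Hspa5 and Hsp90b1. PERK phosphorylates eIF2α, which favors translation of ATF4, but other kinases that sense amino acids, heme or viral RNA do the same, so ATF4 targets can rise in the integrated stress response (ISR) with no call on ER chaperones. The 10 genes bear on whether chaperone transcripts moved with the ATF4 targets.

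ATF6 acts at the ER stress response element (ERSE), here the letters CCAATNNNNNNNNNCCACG on either strand. RefSeq promoters on GRCm38.p6 were taken from 250 bases before to 50 after each gene's start, and a promoter was found for 9 of the 10 genes, all but Manf. The ERSE was in 5 of these 9 genes, Calr, Creld2, Hsp90b1, Hspa5 and Pdia6, and in 39 of all 32851 promoters (0.119%). The element was not found in the windows of Dnajb9, Pdia4, Sdf2l1 or Xbp1. The sites of these 5 genes are printed to show the element they have in common. Distances are from the RefSeq start of the window to the center of the site. Each is given 5′ to 3′ on the strand that carries the element, with the fixed letters in capitals:
Calr, chr8:84847075-84847093, centered 153 bases before the RefSeq start: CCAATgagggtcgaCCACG
Creld2, chr15:88819520-88819538, centered 117 bases before the RefSeq start: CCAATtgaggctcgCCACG
Hsp90b1, chr10:86705533-86705551, centered 98 bases before the RefSeq start: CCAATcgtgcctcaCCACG
Hsp90b1, chr10:86705638-86705656, centered 203 bases before the RefSeq start: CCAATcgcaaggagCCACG
Hspa5, chr2:34772025-34772043, centered 56 bases before the RefSeq start: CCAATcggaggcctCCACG
Pdia6, chr12:17266491-17266509, centered 89 bases before the RefSeq start: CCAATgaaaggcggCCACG

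Starts of the deposited gene models can lie elsewhere: the Hspa5 site is centered 64 bases inside the deposited model, the Hsp90b1 sites 33 and 138 bases before theirs, the Pdia6 site 45 and the Calr site 150, while for Creld2 both starts are the same. The stretches before both the RefSeq start and the deposited model are given for Hsp90b1, which has 2 sites, for Calr, the most abundant of the 10 transcripts in Ctrl, and for Pdia4, which has no site. Each is read along the gene's own strand, and capitals mark the fixed ERSE letters, which read CGTGG and ATTGG where the element lies on the opposite strand:
Hsp90b1, chr10:86705510-86705694 (- strand): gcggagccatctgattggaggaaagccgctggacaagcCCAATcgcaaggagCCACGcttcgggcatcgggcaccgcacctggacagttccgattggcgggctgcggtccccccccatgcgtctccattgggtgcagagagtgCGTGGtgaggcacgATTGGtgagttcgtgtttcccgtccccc
Calr, chr8:84846935-84847181 (- strand): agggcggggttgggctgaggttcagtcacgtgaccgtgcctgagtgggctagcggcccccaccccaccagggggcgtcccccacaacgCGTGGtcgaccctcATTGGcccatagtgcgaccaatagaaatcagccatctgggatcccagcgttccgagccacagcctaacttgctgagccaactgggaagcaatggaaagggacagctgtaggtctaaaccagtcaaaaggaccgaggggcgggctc
Pdia4, chr6:47813513-47813762 (- strand): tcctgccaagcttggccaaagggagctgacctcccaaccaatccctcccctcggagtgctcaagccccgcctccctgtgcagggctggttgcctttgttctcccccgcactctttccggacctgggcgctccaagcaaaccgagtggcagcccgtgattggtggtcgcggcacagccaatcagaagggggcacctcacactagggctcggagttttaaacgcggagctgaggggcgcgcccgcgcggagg
The related ERSE-II (ATTGGNCCACG) was in 12 promoters (0.0365%), the core of the XBP1 element (TGACGTGG) in 222 (0.676%), and the C/EBP-ATF element bound by ATF4 (TGATGNAA) in 1304 (3.97%). None of these 3 was in a promoter of the 9 genes. The ERSE, the ERSE-II and the XBP1 core (on its opposite strand) share the letters CCACG, and a match describes the letters only. The ERSE was also in the promoters of 32 other genes, among them the ER genes Canx, Dnajc3, Syvn1, Derl3 and Ero1b. Of the 11 tested, 0 passed the threshold in either comparison by limma or voom (3 without FF and 0 with FF at an unadjusted p under 0.05), with median log2 fold changes of -0.01 in B2D against Ctrl and 0.01 in B2D+FF against Ctrl+FF.

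Each library held between 15320729 and 21898502 reads on genes. Values are FPKM (fragments per kilobase of gene length, scaled to library size by the authors), so levels can be compared between genes. That comparison rests on the lengths of the deposited gene models, and the Manf model overlaps other genes. In Ctrl, Calr was at 184 ± 25.4 FPKM (SD, n = 5), Hspa5 at 147 ± 29.2, Hsp90b1 at 108 ± 14.3, Pdia4 at 56.1 ± 10.7 and Xbp1 at 45.4 ± 5.2. Below these were Pdia6 at 32 ± 7.5, Dnajb9 at 25 ± 4.9, Creld2 at 19.3 ± 3.09, Manf at 12.6 ± 2.43 and Sdf2l1 at 6.82 ± 1.9 FPKM. Neighbors in this order overlapped between mice, except that every Ctrl mouse had more Hsp90b1 than any had Pdia4, and more Creld2 than any had Manf. The reads behind a value ran from 18 for Sdf2l1 in B2D+FF to 17656 for Hspa5 in B2D. The tissue carried hepatocyte markers at a summed 34896 to 49867 FPKM without FF and 20605 to 25473 FPKM with FF.

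B2D for 4 wk did not move the ER chaperone transcripts past the threshold. By limma on log2(FPKM + 1), 0 of the 10 genes had a Benjamini-Hochberg adjusted p under 0.05, where 2.7% of all 11574 genes tested did (0.769% higher and 1.94% lower). At an unadjusted p under 0.05 there were 2 of 10, Pdia6 and Calr, both lower in B2D, where 18.4% of all genes passed. None of the 10 had groups without overlap, as 4.98% of all genes did, and limma voom on reads recovered from the FPKM also called 0 of 10. The log2 fold changes ran from -0.52 to 0.004, with 9 of the 10 lower in B2D. Their median was -0.15, where the median of all genes was -0.001. That median depended on single mice, at -0.03 without B2D 2, -0.25 without B2D 1 and -0.27 without B2D 3. All fold changes given are differences of log2(FPKM + 1), so those of low genes are understated.

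Hspa5, the ER Hsp70 and the gene most used to read ER stress, was at 104, 169.6, 134, 176 and 152 FPKM in Ctrl mice 1 to 5 and at 158, 76.5, 238, 139.8 and 150.0 in B2D mice 1 to 5. The B2D mice held both the lowest and the highest value of the 10, and the group means were 147 and 152. Its log2 fold change was -0.01 with a 95% confidence interval from -0.56 to 0.54 (adjusted p = 0.983, limma), and its sign turned under 2 rescalings. Dnajb9 (ERdj4), an Hspa5 partner that hands on misfolded proteins and restrains IRE1, was at 17.7, 29.2, 26, 29.4 and 22.8 FPKM in Ctrl and 21.2, 16.5, 30.6, 25 and 20.5 in B2D. Sdf2l1, an ER protein that works with Hspa5 and the co-chaperone Dnajb11, was at 5.73, 7.37, 5.77, 9.91 and 5.31 FPKM in Ctrl and 8.68, 2.17, 12, 2.98 and 3.47 in B2D. For Sdf2l1, 3 B2D mice lay below every Ctrl mouse and 1 above, and its interval was the widest of the 10, from -1.14 to 0.38. Dnajb9 and Sdf2l1 had log2 fold changes of -0.14 and -0.38 (adjusted p = 0.717 and 0.593, limma).

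Hsp90b1 (GRP94), the ER Hsp90, was at 87.3, 109.6, 102, 119 and 123 FPKM in Ctrl and 98.4, 69.2, 159.8, 114 and 117 in B2D. Again the B2D values enclosed the Ctrl values, with a log2 fold change of 0.004, an interval from -0.41 to 0.42 (adjusted p = 0.992, limma) and a negative sign under array weights. Calr (calreticulin), the lectin chaperone that binds newly glycosylated proteins and calcium, was at 149.9, 202, 171, 214 and 182 FPKM in Ctrl and 155, 109, 170.1, 153 and 154 in B2D. Only B2D 2 lay below all Ctrl mice, and the group means were 184 ± 25.4 and 148 ± 23.2 FPKM (SD, n = 5). Its log2 fold change was -0.31 ± 0.14 (SE), with an unadjusted p of 0.048 and an adjusted p of 0.267 by limma.

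The disulfide isomerases Pdia4 and Pdia6 form and shuffle disulfide bonds, and Pdia6 also acts on IRE1. Pdia6 was at 27.3, 32, 24.9, 44.3 and 31.4 FPKM in Ctrl and 27.8, 13.9, 28.1, 19.8 and 21.5 in B2D, with 3 B2D mice below every Ctrl mouse. It had the largest log2 fold change of the 10 without FF, -0.52 ± 0.20 (SE), an unadjusted p of 0.022 and an adjusted p of 0.190 by limma. Over the other 9 settings its adjusted p ran from 0.0849 to 0.381, and with each library left out from 0.140 to 0.388. Pdia4 was at 50, 54.9, 43.2, 71.1 and 61.5 FPKM in Ctrl and 56, 31.1, 83.1, 54.3 and 52 in B2D. The B2D values of Pdia4 enclosed those of Ctrl, and the log2 fold change was -0.07 (adjusted p = 0.900, limma), or 0.04 after quantile normalization.

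Creld2, an ER protein with isomerase activity, was at 18.4, 20.1, 16.7, 24.2 and 16.9 FPKM in Ctrl and 25.1, 8.92, 25.8, 13.3 and 19.2 in B2D. Manf, a secreted ER protein that binds Hspa5, was at 10.8, 14.5, 12.2, 15.5 and 9.82 FPKM in Ctrl and 15.6, 5.29, 15.9, 8.09 and 10.7 in B2D. In both genes B2D 1 and B2D 3 lay above every Ctrl mouse and B2D 2 and B2D 4 below every Ctrl mouse. Creld2 and Manf had log2 fold changes of -0.14 and -0.24 (adjusted p = 0.798 and 0.642, limma). Xbp1, the transcription factor that IRE1 activates by splicing, was at 48.3, 53.1, 42.4, 42.8 and 40.4 FPKM in Ctrl and 48.1, 29.8, 53.3, 34.2 and 39.8 in B2D. Its log2 fold change was -0.17 (adjusted p = 0.597, limma), and gene-level FPKM does not separate spliced from unspliced Xbp1.

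**Figure D1:**
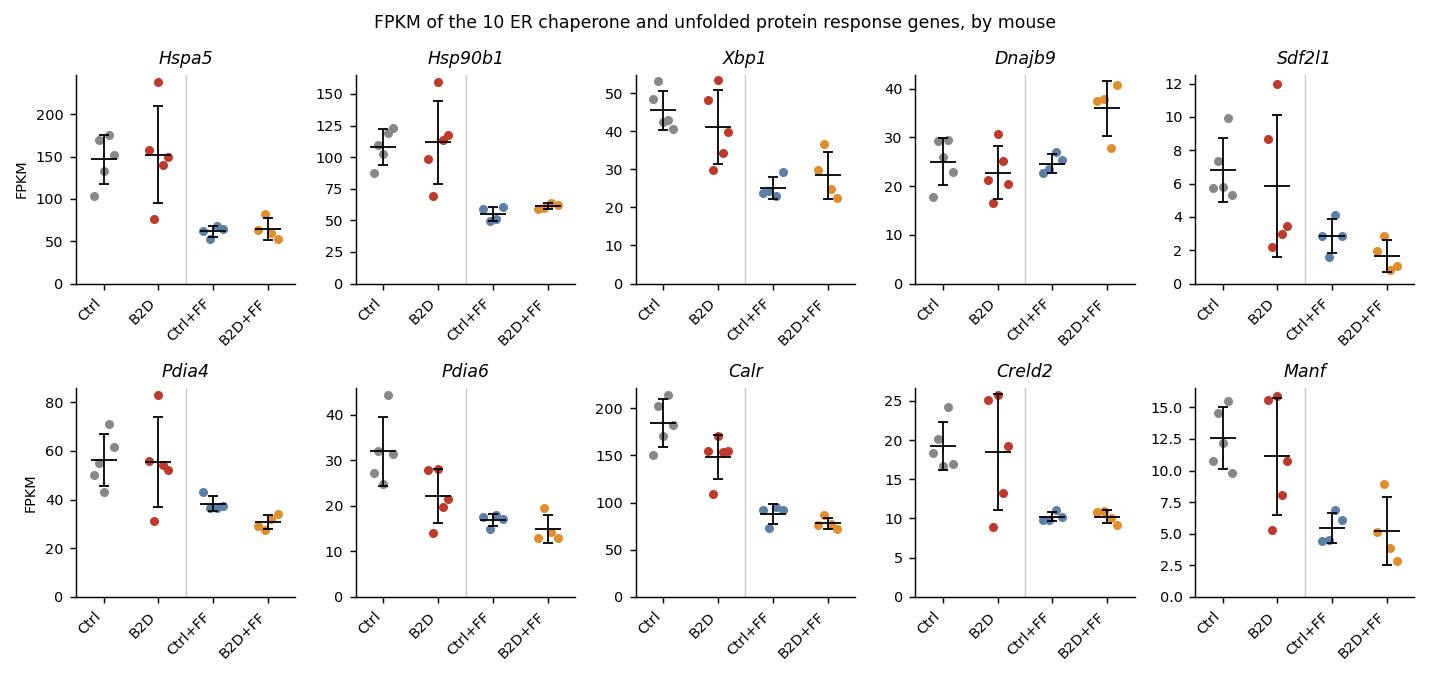
FPKM of the 10 genes (1 panel each, axis from 0) in each mouse of Ctrl and B2D (n = 5) and Ctrl+FF and B2D+FF (n = 4); points are mice, bars are means with SD, and the gray line parts the 2 tables, which were normalized apart. B2D points enclose Ctrl points in 8 panels, while Dnajb9 is higher and Pdia4 lower in B2D+FF with no overlap with Ctrl+FF.

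With FF, 2 of the 10 genes had groups without overlap, in opposite directions, Dnajb9 higher and Pdia4 lower in B2D+FF. Groups did not overlap in 14.3% of all 11878 genes tested. At an adjusted p under 0.05 there were 0 of 10 by limma, where 4.45% of all genes passed (2.24% higher and 2.21% lower), and 2 of 10 at an unadjusted p under 0.05, where 21.2% did. Limma voom on the recovered reads called 1 of 10, Dnajb9. The log2 fold changes ran from -0.56 to 0.52 with a median of -0.07, where the median of all genes was 0.01. The sign of this median rested on single mice, at 0.06 without B2D+FF 4, 0.0008 without Ctrl+FF 3 and -0.15 without B2D+FF 2.

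Dnajb9 was at 22.6, 23.5, 27 and 25.4 FPKM in Ctrl+FF mice 1 to 4 and at 37.5, 38, 27.8 and 40.7 in B2D+FF mice 1 to 4. All B2D+FF mice were above all Ctrl+FF mice, B2D+FF 3 by the least. The log2 fold change was 0.52 ± 0.13 (SE), with an interval from 0.24 to 0.80 and an adjusted p of 0.0513 by limma. This value stood at the threshold: the adjusted p ran from 0.0286 to 0.113 over 8 other settings, 4 of them under 0.05, and from 0.0124 (without B2D+FF 3) to 0.145 with each library left out. Its partner Hspa5 was at 61.8, 52.7, 67.8 and 64.4 FPKM in Ctrl+FF and 62.9, 82.6, 60.1 and 52.5 in B2D+FF. Only B2D+FF 2 lay above the Ctrl+FF mice in Hspa5, whose log2 fold change was 0.05 with an interval from -0.27 to 0.37 (adjusted p = 0.877, limma) and was -0.01 after upper-quartile rescaling. Sdf2l1 was at 2.86, 1.59, 4.1 and 2.88 FPKM in Ctrl+FF and 1.96, 2.88, 0.785 and 1.06 in B2D+FF, with 2 B2D+FF mice below every Ctrl+FF mouse. Its log2 fold change was -0.56, the lowest of the 10 with FF, but its interval reached 0.04 (adjusted p = 0.271, limma).

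Pdia4 was at 43, 36.4, 36.4 and 37.5 FPKM in Ctrl+FF and 29, 27.6, 32.1 and 34.2 in B2D+FF. Every B2D+FF mouse was below every Ctrl+FF mouse, and the log2 fold change was -0.31 ± 0.10 (SE), with an unadjusted p of 0.011 and an adjusted p of 0.107 by limma (0.0582 to 0.476 over 8 other settings). The other isomerase Pdia6 was at 17.7, 14.9, 17.9 and 17 FPKM in Ctrl+FF and 12.9, 19.5, 14.2 and 12.9 in B2D+FF. For Pdia6, 3 B2D+FF mice lay below the Ctrl+FF mice and 1 above (log2 fold change -0.19, adjusted p = 0.460, limma). Calr was at 92.2, 72.6, 95.4 and 92.4 FPKM in Ctrl+FF and 75.8, 86.4, 77.5 and 71.5 in B2D+FF, with a log2 fold change of -0.17 (adjusted p = 0.412, limma). Hsp90b1 was at 58.7, 49.6, 51.4 and 60.4 FPKM in Ctrl+FF and 58.6, 60, 63.8 and 62 in B2D+FF. The log2 fold change of Hsp90b1 was 0.15 with an interval from -0.05 to 0.36 (adjusted p = 0.375, limma). Its 4 B2D+FF mice had a ratio of highest to lowest of 1.09, the smallest in either FF group for any of the 10 genes.

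Xbp1 was at 23.8, 24.4, 23 and 29.3 FPKM in Ctrl+FF and 29.8, 36.5, 24.9 and 22.4 in B2D+FF, with overlapping groups and a log2 fold change of 0.15 (adjusted p = 0.604, limma). Creld2 was at 9.81, 9.79, 11.1 and 10.2 FPKM in Ctrl+FF and 10.8, 10.9, 10.1 and 9.22 in B2D+FF. For Creld2, in the list for its response to ER stress, the group means were both 10.2 FPKM and the interval of the log2 fold change ran from -0.18 to 0.18. Manf was at 4.43, 4.48, 6.84 and 6.11 FPKM in Ctrl+FF and 5.16, 8.97, 3.87 and 2.82 in B2D+FF. The B2D+FF mice enclosed the Ctrl+FF mice in Manf, and its log2 fold change was -0.13 (adjusted p = 0.817, limma).

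**Figure D2:**
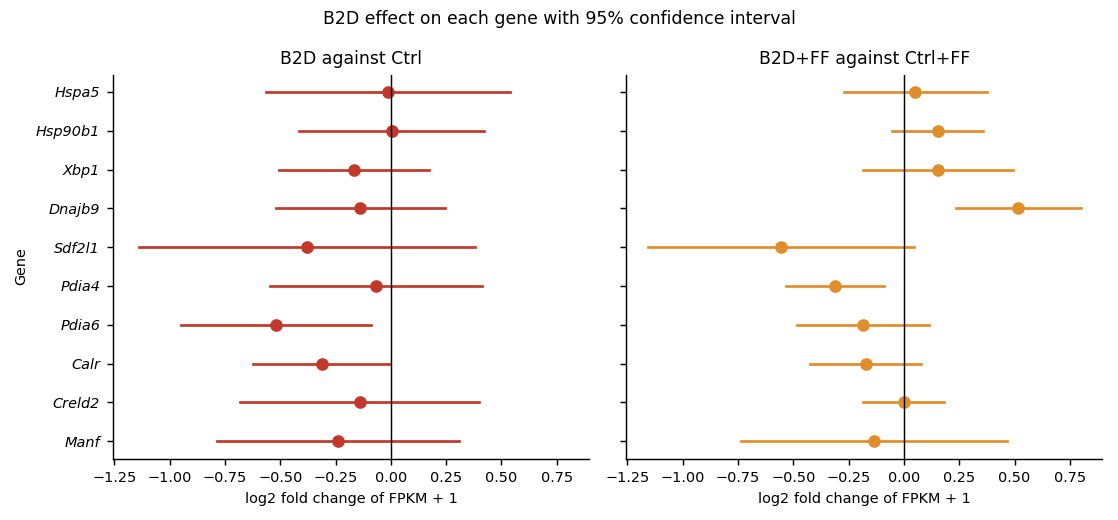
Log2 fold change of FPKM + 1 (points) with 95% confidence intervals (lines) for the 10 genes, B2D against Ctrl at left (n = 5 each) and B2D+FF against Ctrl+FF at right (n = 4 each). Intervals without FF are wide, and with FF the interval of Dnajb9, from 0.24 to 0.80, lies above 0 and that of Pdia4 below it.

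The B2D effect in 1 experiment was set against that in the other in a fit of all 18 libraries. By limma 0 of the 10 genes had an adjusted p under 0.05 for this difference, where 0.228% of all 11862 genes did, and voom called 0 of 10 as well. At an unadjusted p under 0.05 there was 1, Dnajb9, where 11.9% of all genes passed. For Dnajb9 the B2D effect was larger with FF by 0.66 on the log2 scale, with an interval from 0.16 to 1.15 and an adjusted p of 0.281. The median difference over the 10 genes was 0.14, and over all genes 0.01, but the former was -0.04 without B2D 2 and 0.26 without B2D 3.

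The most visible feature of the 10 genes was the spread among B2D mice. B2D 2 was the lowest of its group in all 10 genes and below every Ctrl mouse in all 10, while B2D 3 was the highest of its group in all 10 and above every Ctrl mouse in 8. On the log2(FPKM + 1) scale, the mean over the 10 genes relative to the Ctrl mean was -0.87 in B2D 2 and 0.37 in B2D 3. In the other B2D mice it was 0.05, -0.32 and -0.21, and in Ctrl mice it lay between -0.22 and 0.28. The ratio of the highest to the lowest mouse had a median over the genes of 1.61 in Ctrl and 2.49 in B2D, with a maximum of 5.53 for Sdf2l1 in B2D. With FF, where groups held 4 mice rather than 5, the same median was 1.25 in Ctrl+FF and 1.49 in B2D+FF.

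Other values of these libraries differed too. B2D 2 was the shallowest library, with 15320729 reads and 19479 genes above 0, and B2D 3 had 17909343 reads and the fewest genes above 0, 15866. The summed FPKM of 3 other lists was also lowest of the 10 mice in B2D 2 and highest in B2D 3: the cytosolic heat shock genes (683 and 1492), ER-associated degradation (470.4 and 702) and the mitochondrial chaperones (656 and 862). Neutrophil markers were at their highest sums in these mice, 5.80 and 4.94 FPKM, against at most 3.02 in the others. B cell and plasma cell markers, from cells rich in these chaperones, summed to 95.1 FPKM in B2D 2 and 72.6 in B2D 3. Without FF only 4 of these 8 markers passed the filter on low values. The sum rests on few genes, so it does not measure how many such cells were present. The part of depth and of the other genes in the spread was not tested. Without B2D 2 and B2D 3, a choice made after seeing the data, 0 of the 10 genes passed the adjusted threshold, 1 had an unadjusted p under 0.05, 8 of 10 were lower in B2D, and the median log2 fold change was -0.15, between the values without either mouse alone. That fit called 101 genes in all, against 313 with both mice.

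**Figure D3:**
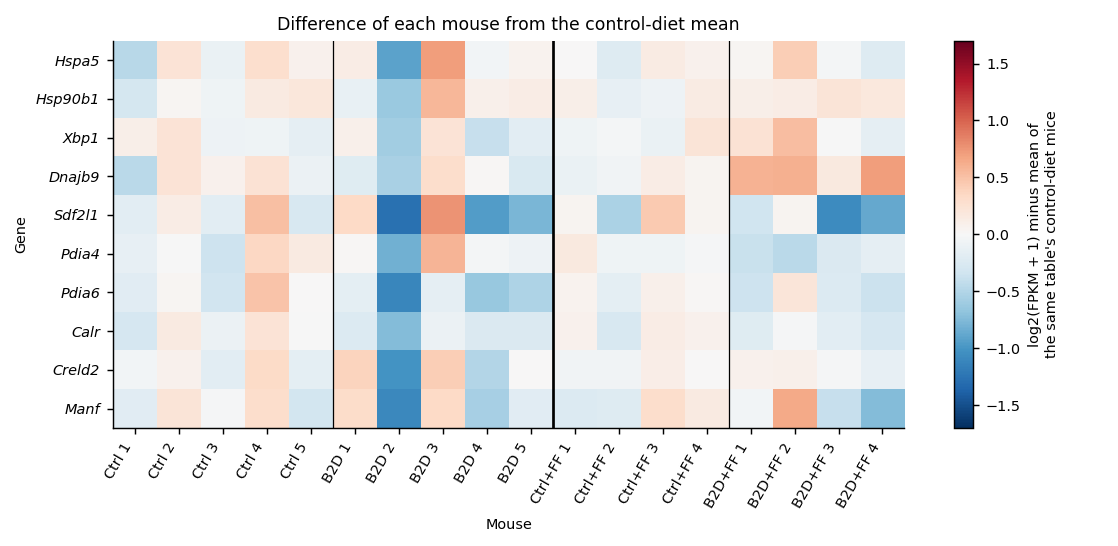
Difference of log2(FPKM + 1) in each of the 18 mice (columns) from the mean of the control-diet mice of the same table (Ctrl or Ctrl+FF) for the 10 genes (rows), red above and blue below. The B2D 2 column is blue in all 10 rows, B2D 3 is red in 8, and Dnajb9 is red in the B2D+FF mice.

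The 10 transcripts varied together from mouse to mouse. With each group's mean taken out, the 45 pairs of genes had Pearson correlations between 0.37 and 0.92 (median 0.73) over the 18 libraries, given as a description since the genes share libraries. Hspa5 had the highest mean correlation with the other 9 genes (0.81) and Dnajb9 the lowest (0.58). Without B2D 2 and B2D 3 the median was 0.49, with 38 of 45 pairs above 0. Over the 8 FF libraries it was 0.46, with 33 of 45 pairs above 0, and Pdia4 had a mean of -0.40 with the other genes.

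Among the other ER genes, Hyou1 (GRP170, the Hspa5 exchange factor) was most like the 10, with a mean correlation of 0.79 over the 18 libraries, followed by the isomerase Pdia3 (0.78), the signal peptidase subunit Spcs2 (0.75), Tram1 (0.72) and Dnajc3 (0.71). Outside the ER lists the most alike were Arhgap42 (0.76), Psmd5 (0.73), Sntb1 (0.72), Ttll4 (0.72) and Maff (0.72), where the median over 11862 genes was 0.003. Of these 5, Maff, a small Maf transcription factor, rose in B2D+FF with a log2 fold change of 1.16 (adjusted p = 0.000918, limma). Without FF it was at -0.47 (adjusted p = 0.249, limma), and its B2D effect differed between the experiments by 1.63 (adjusted p = 0.00687, limma). None of the other 4 passed the threshold in either comparison.

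The wider ER machinery was counted in the same fits. For every other list with 0 genes past the threshold by limma, voom also called 0, except 1 cytosolic heat shock gene lower in B2D and 1 stellate cell marker lower in B2D+FF. Of 25 other ER folding factors, 0 passed the threshold in either comparison by limma. Without FF 20 of the 25 were lower in B2D (median -0.18 on the log2 scale), and 8 had an unadjusted p under 0.05 (6 lower, 2 higher). With FF the median was -0.01, and 2 had an unadjusted p under 0.05, both higher. Hyou1, at 13.4, 13.5, 13, 16.3 and 13.7 FPKM in Ctrl, was at 19.3, 5.53, 23.5, 10.1 and 12.5 in B2D, again lowest in B2D 2 and highest in B2D 3. P4hb, the main protein disulfide isomerase, had a log2 fold change of 0.36 with FF (adjusted p = 0.137, limma), and Dnajb11, Dnajc3, Pdia3 and Canx lay between -0.11 and 0.03.

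Of the 17 genes of ER-associated degradation that were tested, 0 passed without FF (1 at an unadjusted p under 0.05) and 1 with FF, Selenos, a selenoprotein of the ER membrane that helps export misfolded proteins. Selenos was at 25.7, 26.2, 30.3 and 28 FPKM in Ctrl+FF and 43.6, 43.1, 34 and 41.7 in B2D+FF. All B2D+FF mice were higher, with a log2 fold change of 0.54 ± 0.10 (SE, adjusted p = 0.0225, limma). Herpud1, a scaffold of the degradation complex that ATF4 and ATF6 can both induce, was at 68, 72.4, 72.9 and 108 FPKM in Ctrl+FF and 98.3, 107, 138 and 135 in B2D+FF. Its groups overlapped through Ctrl+FF 4, and its log2 fold change of 0.58 had an adjusted p of 0.0906. Edem1, a mannosidase-like factor and XBP1 target, was at 24.1, 21.6, 22 and 22.6 FPKM in Ctrl+FF and 15.1, 17.4, 17.5 and 19.9 in B2D+FF. Every B2D+FF mouse was lower in Edem1, with a log2 fold change of -0.36 (adjusted p = 0.064, limma), and voom called it lower. Syvn1 had a log2 fold change of 0.03, and Derl3 was under the filter in both tables. The median of the list was 0.02 without FF and 0.03 with FF.

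For translocation, glycosylation and ER to Golgi transport, 0 of 36 genes passed without FF (5 at an unadjusted p under 0.05, 1 of them higher) and 2 of 37 with FF, both higher. They were Kdelr2, the receptor that returns ER chaperones from the Golgi (log2 fold change 0.34, adjusted p = 0.044, limma), and Srpr, the receptor for the signal recognition particle (0.31, adjusted p = 0.049). Voom called Kdelr2 but not Srpr (adjusted p = 0.0742). The list's median was -0.07 without FF, with 28 of 36 genes lower, and 0.11 with FF, with 29 of 37 genes higher. Of the 9 sensors and their processing factors, 0 passed in either comparison, with 1 and 4 at an unadjusted p under 0.05 and medians of 0.006 and 0.09. Ern1 (IRE1) was lower in every B2D+FF mouse than in any Ctrl+FF mouse, with a log2 fold change of -0.21 (adjusted p = 0.109), while Eif2ak3 (PERK) and Atf6 were at 0.24 and 0.09 (adjusted p = 0.227 and 0.727, limma).

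A few genes of ATF4 and the ISR rose in each experiment, and 0 passed the threshold in both. Of the 33 genes listed, 22 were tested without FF, where 2 rose and 0 fell in B2D, the list's median was 0.31 on the log2 scale, and 10 were at an unadjusted p under 0.05 (8 higher, 2 lower). With FF, 5 of 23 rose in B2D+FF and 0 fell, with a median of 0.55, 22 of 23 higher and 14 at an unadjusted p under 0.05, all higher. The filter on low values favors genes that rise: Asns and Vldlr without FF, and Atf3 and Psat1 with FF, averaged under 0.5 FPKM on the control diet and were tested only through their higher level on the deficient diet. Leaving these out, 2 of 20 and 4 of 21 rose, with medians of 0.24 and 0.49. This list overlaps one already tested on these libraries, so its direction is not independent evidence. Tested between the experiments, the B2D effect differed past the threshold for 0 of 23 by limma or voom (5 at an unadjusted p under 0.05).

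Without FF the 2 genes that rose were Atf5, a transcription factor of the mitochondrial stress response (log2 fold change 0.63, adjusted p = 0.0378, limma), and Sesn2, an mTORC1 inhibitor (0.49, adjusted p = 0.048), both named after their values were seen. Atf5 was at 159.8, 118, 172, 146 and 168 FPKM in Ctrl and 274, 225, 249, 259 and 182 in B2D, with no overlap. With FF the list was led by Fgf21, a fasting hormone that PPARα also induces, at 1.28, 3.83, 1.09 and 4.1 FPKM in Ctrl+FF and 11.3, 17.3, 12.4 and 37.9 in B2D+FF. Every B2D+FF mouse was above every Ctrl+FF mouse, with a log2 fold change of 2.49 ± 0.41 (SE, adjusted p = 0.0137, limma). Trib3, a pseudokinase that dampens ATF4 and insulin signaling, was at 4.24, 6.15, 4.14 and 4.5 FPKM in Ctrl+FF and 9.95, 7.13, 10.4 and 12.1 in B2D+FF. Trib3 also rose with no overlap, by a log2 fold change of 0.91 (adjusted p = 0.0164, limma). The amino acid transporter chain Slc3a2 (0.72, adjusted p = 0.0239) and the transaminase Gpt2 (0.55, adjusted p = 0.0277) also rose, the latter named after its values were seen. Psat1 of serine synthesis, tested only through its level in B2D+FF, averaged 0.264 FPKM in Ctrl+FF and 1.19 FPKM in B2D+FF.

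Atf4 itself was at 24.4, 31.9, 29.5, 28 and 26.4 FPKM in Ctrl and 32.9, 33.8, 25.4, 28.1 and 28.4 in B2D, with a log2 fold change of 0.08 (adjusted p = 0.743, limma). With FF it was at 19.9, 21.5, 21.4 and 29.2 FPKM in Ctrl+FF and 30.2, 39.3, 27.1 and 34.1 in B2D+FF, overlapping only through Ctrl+FF 4 and B2D+FF 3 (0.49, adjusted p = 0.0935). ATF4 is controlled mainly in translation, which RNA does not show. Ddit3 (CHOP), the proapoptotic factor downstream of PERK, had log2 fold changes of 0.43 without FF and 0.58 with FF (adjusted p = 0.242 and 0.219, limma). Asns, asparagine synthetase, was at 0.43 and 0.62 (adjusted p = 0.199 and 0.283, limma), and Ppp1r15a (GADD34), which ends eIF2α phosphorylation, at -0.17 and 0.14 (adjusted p = 0.443 and 0.734, limma). Chac1, a glutathione-degrading target of ATF4 and CHOP, went the other way without FF, at 1.2, 0.843, 0.372, 0.893 and 0.613 FPKM in Ctrl and 0.232, 0.251, 0, 0.22 and 0.161 in B2D. All B2D mice were lower in Chac1, but its mean was under the filter and it was not tested there. With FF its log2 fold change was 0.45 (adjusted p = 0.259, limma).

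**Figure D4:**
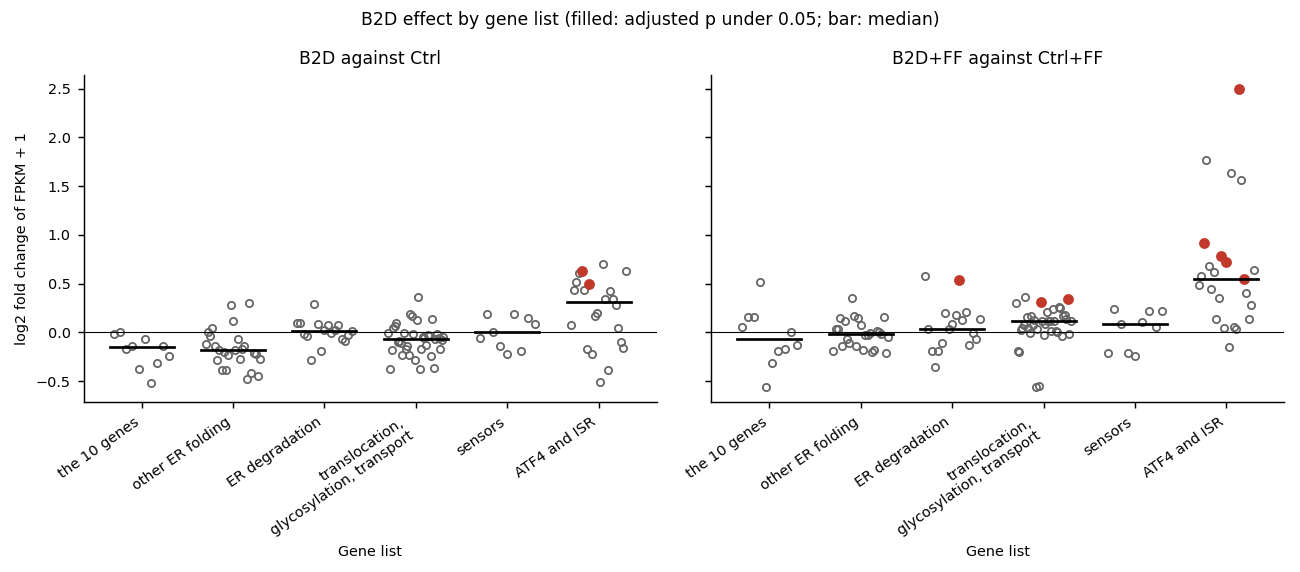
Log2 fold change of FPKM + 1 for each tested gene (circles) of 6 lists, B2D against Ctrl at left and B2D+FF against Ctrl+FF at right; filled circles have an adjusted p under 0.05 and bars are list medians. The 10 genes have medians of -0.15 and -0.07 with none filled. The ATF4 and ISR list has medians of 0.31 and 0.55. These are 0.24 and 0.49 without the genes tested only through their higher level on the deficient diet.

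Chaperones of other compartments and the secreted load were read beside the ER genes. Of 15 cytosolic heat shock genes, 0 passed in either comparison by limma (4 and 2 at an unadjusted p under 0.05), with medians of -0.16 and 0.03. Of 12 mitochondrial chaperones and proteases, 0 passed in either (1 and 3 at an unadjusted p under 0.05), with medians of -0.08 and 0.12. Among 31 abundant secreted liver proteins, 1 fell without FF and 3 with FF, all of the Serpina1 family of protease inhibitors, with list medians of -0.18 and -0.14. They were Serpina1e in both comparisons (log2 fold changes -3.92 and -3.21, adjusted p = 0.00649 and 0.0113, limma) and, with FF, Serpina1c and Serpina1a. The Serpina1 genes are near-identical copies, so their counts are uncertain. The secreted list summed to 83990 to 103844 FPKM in Ctrl and 74488 to 99429 in B2D, and to 68525 to 74505 in Ctrl+FF and 54492 to 68265 in B2D+FF, the last without overlap.

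In whole liver, fewer cells of a type and less RNA per cell cannot be told apart. Of 8 hepatocyte markers, 0 passed without FF (2 at an unadjusted p under 0.05) and 3 with FF, Tat, Pck1 and Ass1, all higher in B2D+FF and all also genes of amino acid or glucose metabolism. With FF 7 of the 8 were at an unadjusted p under 0.05, 5 higher and 2 lower, and the summed markers overlapped, from 21883 to 25473 FPKM in Ctrl+FF and 20605 to 24072 in B2D+FF. Among 7 Kupffer cell markers, Clec4f was lower in B2D (log2 fold change -0.47, adjusted p = 0.0412, limma). Without FF 2 of the 7 were at an unadjusted p under 0.05, 1 lower and 1 higher. The highest log2 fold change was 0.95, and 6 of 7 were under 0. With FF 0 passed (1 at an unadjusted p under 0.05, lower), the highest was 0.84, and 6 of 7 were under 0. Of 6 endothelial markers Lyve1 rose with FF, while the other 5 had log2 fold changes under 0 and did not pass (list median -0.13), and 0 passed without FF (1 at an unadjusted p under 0.05). Of the 6 stellate cell markers tested, 0 passed in either comparison (1 at an unadjusted p under 0.05 in each). For cholangiocyte markers 0 of 3 and 0 of 2 passed (0 and 1 at an unadjusted p under 0.05), and for B cell and plasma cell markers 0 of 4 and 0 of 2 (0 and 2). Of 5 neutrophil markers, 0 of 2 tested passed without FF (1 at an unadjusted p under 0.05) and 1 of 3 with FF, Retnlg, tested only through its higher level in B2D+FF (means of 0.301 and 1.63 FPKM). The summed neutrophil markers were at 2.18 to 3.70 FPKM in Ctrl+FF and at 6.20, 13.5, 4.99 and 3.001 in B2D+FF mice 1 to 4, which overlapped. Ly6g was at 0 in every mouse of Ctrl, B2D and B2D+FF, and Ngp in every Ctrl+FF mouse. Exocrine pancreas markers, whose cells are also rich in ER chaperones, summed to at most 7.44 FPKM, with 7 of 9 at 0 in all Ctrl mice. Only 1 of the 9 was tested, and it did not pass in either comparison. Without FF it was lower in B2D at an unadjusted p under 0.05 (log2 fold change -0.44), and with FF it was not (-0.28). The part of the marker genes in the values of the 10 genes was not tested.

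On the genome, Hspa5 lies on chr2:34771970-34777547, Hsp90b1 on chr10:86690209-86705509, Xbp1 on chr11:5520659-5525893, Dnajb9 on chr12:44205559-44210326 and Sdf2l1 on chr16:17130138-17132383 in the deposited GRCm38 models. Pdia4 lies on chr6:47796141-47813430, Pdia6 on chr12:17266545-17284770, Calr on chr8:84841850-84846934, Creld2 on chr15:88819646-88826683 and Manf on chr9:106838312-106891979. The Manf model overlaps Rbm15b on its own strand (mean 1.88 FPKM) and Dcaf1 on the other (3.65 FPKM), and Hsp90b1 overlaps Gm15344 (2.32 FPKM) and 1810014B01Rik (1.91 FPKM). Whether strand was used in counting is not given in the sources used here, so reads in these overlaps cannot be told apart.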

How the data were processed

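Liver RNA of 18 mice was profiled by paired-end mRNA-seq. Per the labels and the study's methods, the authors used STAR with mm10 for alignment, featureCounts for gene counts and DESeq2 for tests. They deposited 1 table of FPKM values per experiment, which the methods call RPKM. In every library 100% of the values, within 0.05 of a read, were whole multiples of 1 read, and the library sizes matched median-of-ratios scaling within each table, so each table was fitted alone. No pair of libraries was identical.

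Genes averaging 0.5 FPKM or more were tested on log2(FPKM + 1) by limma 3.58.1 (trend) in R 4.3.3, and p-values were adjusted by Benjamini-Hochberg over all genes tested, called below 0.05. A contrast over 18 libraries compared the B2D effects. Each p-value sets the difference between groups against the spread between mice. The test was tried on simulated data. Promoters were searched on both strands in Python 3.11.15.

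The 10 genes and the lists were chosen with earlier results of these data known. The text names the 10 genes, up to 4 genes of each list with the smallest adjusted p, 20 genes of the response in any case, and the 5 genes outside the ER lists most alike. Alternatives were no filter, a filter at 5 FPKM, a pseudocount of 0.1, upper-quartile rescaling, quantile normalization, array weights, limma voom on recovered reads, all 4 groups in 1 fit, each library left out, and B2D 2 and B2D 3 left out (added after seeing the data).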

Additional observations from a re-analysis of the deposited data

Results flagged for a closer look

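In 2 of the 40 combinations of gene and group, 1 mouse stood apart from the others of its group by Dixon's test, both times for Calr, and chance alone sets apart about 1 group in 20. Calr was at 109 FPKM in B2D 2, where the other B2D mice were between 153 and 170.1 FPKM. It was at 72.6 FPKM in Ctrl+FF 2, where the other Ctrl+FF mice were between 92.2 and 95.4 FPKM.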

How the results depend on the processing

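The count of the 10 genes past the threshold was 0 in B2D against Ctrl and in the difference between the experiments under every alternative, each library left out included. In B2D+FF against Ctrl+FF it was 0, but 1 (Dnajb9) with a mean FPKM of at least 5, quantile normalization, array weights or voom, and 0 to 1 with each library left out. Of all genes, 313 were called in B2D against Ctrl, but 67 without a filter, 777 with all 4 groups in 1 fit, 101 without B2D 2 and B2D 3, and 98 (without Ctrl 4) to 332 with each library left out (153 without Ctrl 1, 109 without Ctrl 2, 161 without B2D 2 and 148 without B2D 4). In B2D+FF against Ctrl+FF 529 were called, but 272 without a filter, 885 with array weights, and 175 (without Ctrl+FF 1) to 596 with each library left out (188 without Ctrl+FF 2, 242 without Ctrl+FF 3, 302 without B2D+FF 1 and 298 without B2D+FF 4). For the difference 27 were called, but 16 with a pseudocount of 0.1, 136 with array weights, 13 with voom, and 17 (without Ctrl+FF 2) to 66 (without B2D 1) with each library left out (42 without Ctrl 5). Without a filter more genes were tested, and without a library fewer mice were fitted. The cause of the changed counts was not tested. Upper-quartile rescaling moved the split from 266 higher and 263 lower to 221 and 363 in B2D+FF against Ctrl+FF, and from 15 and 12 to 13 and 18 for the difference. The median log2 fold change of the 10 genes ran, with each library left out, from -0.27 to -0.030 without FF, -0.15 to 0.056 with FF and -0.043 to 0.26 for the difference. Signs turned for genes near 0. In B2D against Ctrl the log2 fold change of Hspa5 was 0.016 after upper-quartile rescaling, 0.096 after quantile normalization and 0.044 without B2D 2 and B2D 3, that of Pdia4 was 0.045 after quantile normalization, and that of Hsp90b1 was -0.016 with array weights. Hspa5 was at -0.011 in B2D+FF against Ctrl+FF after upper-quartile rescaling. In the difference, Hspa5 was at -0.026 after upper-quartile rescaling and -0.064 after quantile normalization, Hsp90b1 at -0.0054 and Calr at -0.017 after quantile normalization, and Sdf2l1 at 0.067 with array weights. With each library left out, the log2 fold change without FF ran from -0.19 to 0.21 for Hspa5, -0.14 to 0.16 for Hsp90b1, -0.23 to 0.12 for Pdia4 and -0.28 to 0.078 for Creld2. With FF it ran from -0.073 to 0.14 for Hspa5, -0.028 to 0.045 for Creld2 and -0.39 to 0.067 for Manf. The difference ran from -0.16 to 0.25 for Hspa5, -0.0087 to 0.29 for Hsp90b1, -0.40 to 0.11 for Sdf2l1, -0.078 to 0.28 for Creld2 and -0.15 to 0.31 for Manf. No paired analysis was possible because the mouse numbers are unique to each mouse and no group shares them. Depth limits Sdf2l1, which had 18 to 79 reads per library with FF.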
